A study of Homo sapiens with 10 samples.

Results

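The apelin receptor system and a set of endothelial genes were described in undifferentiated human embryonic stem cells. The 9 genes were found by their symbols (APLNR, APLN, APELA, ERG, VWF, TEK, KDR, FLT1 and PECAM1) in the deposited annotation and joined by gene identifier to the raw counts, and all 9 were present among the 32152 genes of the table. The study sequenced polyA RNA of WAe009-A (H9), an established human embryonic stem cell line, and addresses how KCNH2, the gene of the hERG1 potassium channel, bears on developmental gene expression. It held 5 libraries of KCNH2-/- cells (KO), whose genotype field says knockdown while titles and protocol say knockout, and 5 libraries of the wild-type cells (WT). WT cells grew in TeSR-E8 and KO cells in mTeSR plus, both on Matrigel for at least 4 days, so genotype and medium cannot be told apart in any result below. Nothing in the labels says that replicates were separate cultures, or how many edited clones they represent, and every p-value rests on the spread among these 10 libraries, which may be technical.

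The apelin receptor, encoded by APLNR, is a G protein-coupled receptor with a pair of secreted peptide ligands, apelin (APLN) and ELABELA (APELA), and it takes part in mesendoderm migration, heart formation and vessel growth in embryos. KDR and FLT1 are receptors of vascular endothelial growth factor (VEGF), with FLT1 known also as a decoy that binds VEGF tightly. TEK is the receptor of the angiopoietins, ERG is an ETS-family transcription factor of the endothelial lineage, and VWF and PECAM1 encode a clotting factor and a junction protein of mature endothelium and platelets. Human embryonic stem cells are known to secrete ELABELA, and transcripts of vascular genes in them need not mean that endothelial cells are present.

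Libraries held 28615751 to 47319933 counts. Levels below are in CPM, counts scaled by library size and by TMM, a normalization between libraries. On log2 CPM the first principal component (44.8% of the variance) separated the groups, while KO replicate 3 and WT replicates 3 and 2 stood apart on the second (28.3%), at -59.1, -32.2 and -10.1 against -2.3 to 13.9 in the other KO and 25 to 35.8 in the other WT libraries. KCNH2 itself measured 12.2 ± 1.0 CPM (SD, n = 5) in KO and 15.5 ± 0.754 CPM in WT, and whole-gene counts cannot check an edit whose position in the gene is unstated. The pluripotency markers measured were POU5F1, NANOG, SOX2, LIN28A, DNMT3B, TDGF1, PODXL and ZFP42. They summed to 6940 to 7330 CPM in KO and 6190 to 6450 CPM in WT, so the defining markers of the labelled cell type were present. Of these 8, POU5F1, NANOG and LIN28A were called higher in KO and 0 lower, where 21.9% of all tested genes were higher and 24.1% lower.

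The receptor APLNR and the endothelial gene ERG were far lower in KO, and VWF was lower by less. PECAM1, outside the main test, had fewer counts in KO. The apelin ligands and FLT1 did not pass the test, and TEK and, slightly, KDR were higher. Of the 9 genes, 8 passed the filter on low counts and entered edgeR's quasi-likelihood test, whose p-values were adjusted by the Benjamini-Hochberg method over 19163 genes. At an adjusted p under 0.05, 3 fell (APLNR, ERG, VWF), 2 rose (TEK, KDR) and 3 did not pass (APLN, APELA, FLT1). Across all tested genes 24.1% were lower and 21.9% higher, or 46.0% in either direction, and read against that background the number of members called is no result about them. The median log2 fold change (KO over WT) was -0.28 over the 8 tested members and 0 over all tested genes. Of the 8, 3 were lower and 1 (KDR) higher with no overlap between the 5 and 5 libraries, against 17.7% and 16.3% of all tested genes. In RNA of whole cultures, fewer cells expressing a gene and less RNA per cell cannot be told apart.

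**Figure D1:**
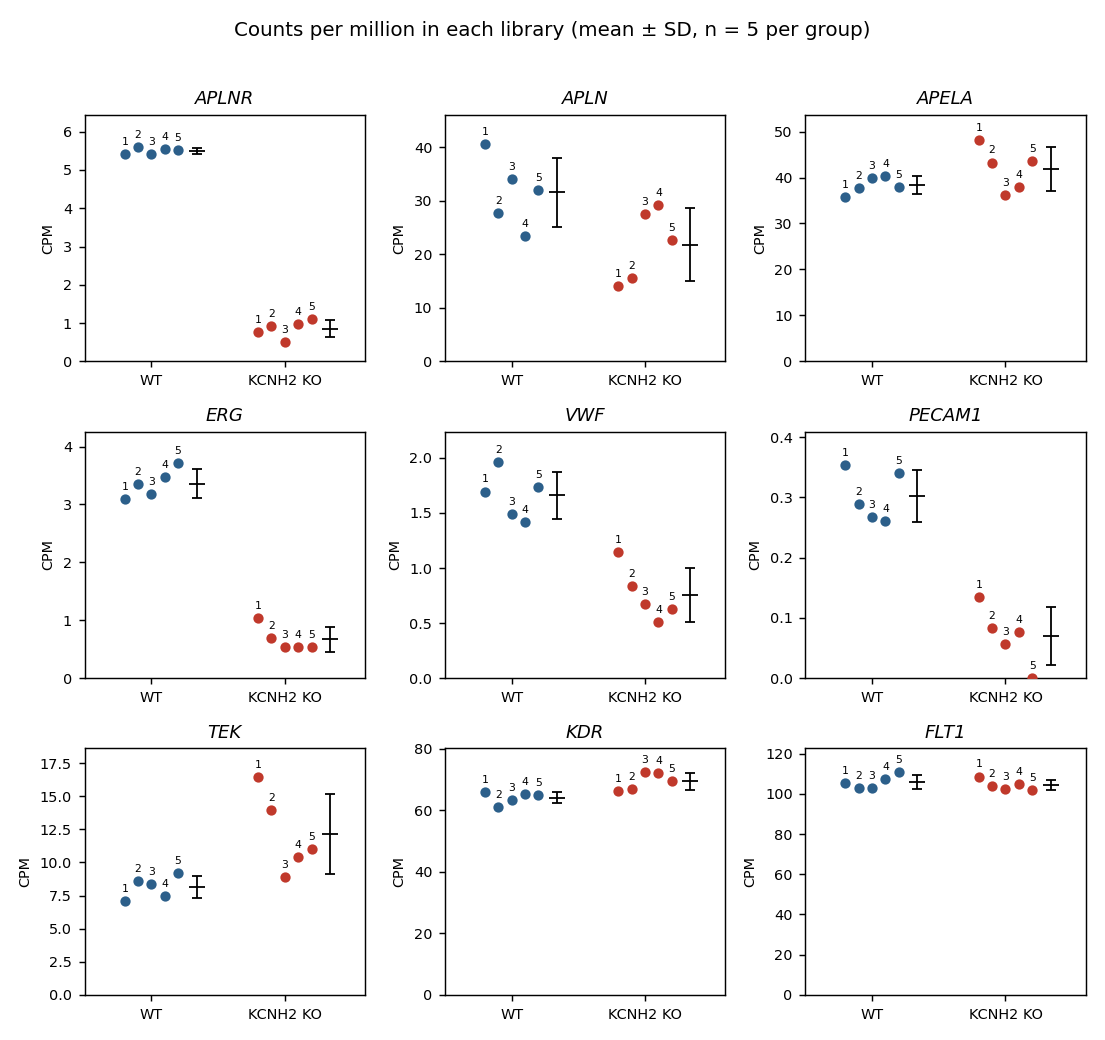
Level in CPM (vertical axis, from 0, TMM-scaled) of the 9 genes in each library, with WT in blue and KO in red, replicate numbers above the points, and mean ± SD over 5 libraries in black. APLNR, ERG, VWF and PECAM1 do not overlap between groups, and FLT1 stays between 102 and 111 CPM in all 10 libraries.

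APLNR (ENSG00000134817) lies on the minus strand of chromosome 11, 57233577 to 57237314 of GRCh38, as a single merged exonic block of 3738 bases. The WT libraries 1 to 5 held 214, 271, 244, 192 and 162 APLNR counts, or 5.42, 5.6, 5.43, 5.56 and 5.51 CPM. The KO libraries held 23, 33, 18, 38 and 39 counts, or 0.773, 0.918, 0.502, 0.968 and 1.11 CPM. Every KO library was thus below every WT library, and the highest KO value was still well under the lowest WT value. The log2 fold change was -2.68 (SE 0.16, edgeR adjusted p = 2e-07), a level 6.41-fold lower in KO, and it ranked 25 among the falls of all 19163 genes. WT libraries varied by 1.47% (coefficient of variation), less than the 6.79% that counting alone gives at this depth. KO libraries varied by 27%, where counting alone gives 18.2%. The receptor was still detected in every KO library, with 151 counts over the group against 1083 in WT.

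Both peptide ligands were expressed at clear levels in both groups. Their coding sequences from GENCODE 29 are shown because the ligands, unlike their receptor, did not pass the test, and because the measured mRNA encodes a precursor from which the peptide is cut. Capitals mark the 32 codons of the ELABELA mature peptide and the 13 codons of apelin-13, each at the end of its precursor (54 and 77 codons before the stop). They lie at chr4:164877332-164879008 (plus strand) and chrX:129648626-129654630 (minus strand) of GRCh38, each split over 2 exons.
APELA: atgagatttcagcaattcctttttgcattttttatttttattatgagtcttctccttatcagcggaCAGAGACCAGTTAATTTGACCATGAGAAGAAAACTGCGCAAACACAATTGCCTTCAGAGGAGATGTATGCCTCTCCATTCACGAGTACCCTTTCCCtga
APLN: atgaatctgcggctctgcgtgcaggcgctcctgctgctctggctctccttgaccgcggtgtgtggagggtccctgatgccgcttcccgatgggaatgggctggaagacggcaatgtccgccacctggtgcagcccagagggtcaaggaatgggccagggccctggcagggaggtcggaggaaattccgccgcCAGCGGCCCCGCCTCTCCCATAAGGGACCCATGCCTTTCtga

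APELA (ENSG00000248329, chromosome 4, 164877004 to 164898965, plus strand) measured 48.2, 43.3, 36.3, 37.9 and 43.7 CPM in KO replicates 1 to 5. In WT it measured 35.7, 37.7, 40.0, 40.4 and 38.0 CPM. The groups overlapped, with KO replicates 1, 2 and 5 above all WT libraries and replicates 3 and 4 within the WT range. On the log2 scale the fold change was 0.12 (SE 0.07, edgeR adjusted p = 0.173). Without KO replicate 3 it was 0.17 and passed (adjusted p = 0.043), so that 1 library decides the call.

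APLN (ENSG00000171388, chromosome X, 129645259 to 129654937, minus strand) was the most uneven of the well-counted members. KO replicates 1 to 5 held 14.0, 15.6, 27.5, 29.2 and 22.7 CPM. WT libraries held 40.5, 27.8, 34.1, 23.4 and 32 CPM. KO replicates 1 and 2 were below all other libraries, replicates 3 and 4 lay within the WT range, and replicate 5 lay just under the lowest WT library. The log2 fold change of -0.53 (SE 0.21) missed the threshold (edgeR adjusted p = 0.0541). The adjusted p moved between 0.026 and 0.133 over the alternatives, passing without KO replicate 3 (0.0329), KO replicate 4 (0.026) or WT replicate 4 (0.0334). Coefficients of variation were 31.4% in KO and 20.5% in WT, where counting alone gives 3.58% and 2.83%, so the spread was well above counting error.

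Per kilobase of exon, ligand mRNA exceeded receptor mRNA in every library. APELA stood at 8.43 ± 0.406 times the APLNR level in WT (SD, n = 5) and at 63.0 ± 17.8 times in KO. APLN stood at 6.70 ± 1.46 times APLNR in WT and 32.8 ± 18.4 times in KO. These ratios contain the fall of APLNR and are not separate evidence of it. Exonic lengths are unions over GENCODE 29 transcripts, so they overstate the length of a gene whose short isoforms dominate.

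Ordered by level per length in WT, APELA came highest at 12.4 ± 0.614 CPM per kilobase (SD, n = 5), then APLN at 9.85 ± 2.02, KDR at 9.77 ± 0.289 and FLT1 at 8.43 ± 0.274. TEK followed at 1.69 ± 0.177 and APLNR at 1.47 ± 0.0217, then ERG at 0.443 ± 0.0324, VWF at 0.16 ± 0.0207 and PECAM1 at 0.039 ± 0.0055. The ranges of APELA and APLN, of APLN and KDR, and of TEK and APLNR overlapped between neighbours in this order, while the other neighbours were separate in all 5 WT libraries. In KO the order of the leading genes was APELA (13.5 ± 1.55), KDR (10.6 ± 0.442), FLT1 (8.31 ± 0.209) and APLN (6.80 ± 2.14), with the range of APLN overlapping that of FLT1. The KO level of APLNR was 0.229 ± 0.0618 CPM per kilobase, below TEK at 2.53 ± 0.629 with no shared values.

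**Figure D2:**
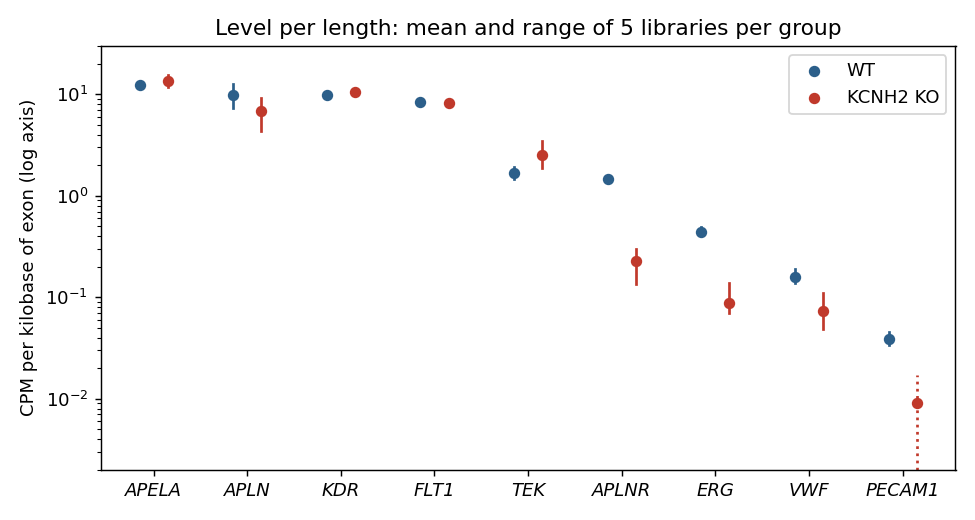
Level per length (CPM per kilobase of exon, log axis) of the 9 genes, ordered by their WT mean; points are means and lines the range of 5 libraries, WT in blue and KO in red. The dotted line of PECAM1 runs off the axis because KO replicate 5 held 0 counts; APELA is highest in both groups.

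ERG and VWF fell from low levels, and PECAM1, which could not enter the main test, had fewer counts in KO. ERG (ENSG00000157554, chromosome 21, 38380027 to 38661780, minus strand) measured 1.04, 0.696, 0.530, 0.535 and 0.541 CPM in KO replicates 1 to 5. WT libraries held 3.09, 3.35, 3.18, 3.47 and 3.71 CPM. The groups were far apart, and KO replicate 1 was the highest of its group. ERG changed by -2.34 in log2 terms (SE 0.17, edgeR adjusted p = 1.40e-06), or 5.06-fold lower in KO, on 115 counts in KO and 656 in WT.

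VWF (ENSG00000110799, chromosome 12, 5948874 to 6124770, minus strand) held 34, 30, 24, 20 and 22 counts in KO and 67, 95, 67, 49 and 51 in WT. That is 1.14, 0.835, 0.669, 0.510 and 0.627 CPM in KO and 1.70, 1.96, 1.49, 1.42 and 1.74 CPM in WT. KO replicate 1 came closest to WT but stayed below its lowest library. VWF changed by -1.15 in log2 terms (SE 0.20, edgeR adjusted p = 6.03e-04). VWF has a partial copy, the pseudogene VWFP1, to which the authors' counting assigned 2 counts over all 10 libraries.

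PECAM1 (ENSG00000261371, chromosome 17, 64319415 to 64413776, minus strand) was barely detected and did not pass the filter. Its counts were 4, 3, 2, 3 and 0 in KO and 14, 14, 12, 9 and 10 in WT, so every KO library was below every WT library even at these few reads. Pooled over unscaled library totals, WT exceeded KO by 4.61-fold, with an exact 95% counting interval of 2.45 to 9.42 that covers counting error only. With no filter, edgeR gave a log2 fold change of -2.08 (SE 0.44, adjusted p = 0.00264).

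TEK and KDR rose and FLT1 did not pass the test, unlike FLT4 and TIE1, related receptors outside the 9 genes, which fell. TEK (ENSG00000120156, chromosome 9, 27109141 to 27230175, plus strand) rose, holding 16.5, 13.9, 8.92, 10.4 and 11 CPM in KO replicates 1 to 5 against 7.11, 8.58, 8.41, 7.44 and 9.19 CPM in WT. KO replicate 3 lay within the WT range, and the other KO libraries were above it, replicate 1 by the most. TEK changed by 0.57 in log2 terms (SE 0.15, edgeR adjusted p = 0.00777), and from 0.45 to 0.71 over the alternatives.

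KDR (ENSG00000128052, chromosome 4, 55078259 to 55125595, minus strand) differed little. KO libraries held 66.1, 66.8, 72.3, 72.1 and 69.5 CPM and WT libraries 65.8, 61.1, 63.4, 65.2 and 65.0 CPM. The groups touched without overlapping, KO replicate 1 being just above WT replicate 1. The log2 fold change was 0.11 (SE 0.03, edgeR adjusted p = 0.0168), and it did not pass without KO 3 and WT 3 (0.10, adjusted p = 0.0771) or without WT 2 as well (0.07, adjusted p = 0.229).

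FLT1 (ENSG00000102755, chromosome 13, 28300344 to 28495145, minus strand) had the log2 fold change closest to 0 of the 8 tested members. It measured 109, 104, 102, 105 and 102 CPM in KO and 106, 103, 103, 107 and 111 CPM in WT, with full overlap. For FLT1 the log2 value of KO over WT was -0.02 (SE 0.03, edgeR adjusted p = 0.589). An offset for gene length per library moved it to 0.12 (adjusted p = 0.00531), the one alternative that turned its direction and passed. FLT1 has the longest exonic length of the 9 genes, 12567 bases.

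ERG belongs to the ETS factors, which bind a GGAA core, so the bases before the starts of ERG and of both VEGF receptors are shown. Capitals mark a longer form of that core (AGGAAG, or CTTCCT on the other strand) and a cyclic AMP response element (TGACGTCA). Each is the 250 bases before a RefSeq start in GRCh38.p14, all on the minus strand, at chr21:38498505-38498754 (ERG, 1 of its 4 listed starts), chr13:28495129-28495378 (FLT1) and chr4:55125596-55125845 (KDR). Of the 9 genes, 6 had entries in the table used, 10 entries in all, and APLNR, VWF and PECAM1 had none.
ERG: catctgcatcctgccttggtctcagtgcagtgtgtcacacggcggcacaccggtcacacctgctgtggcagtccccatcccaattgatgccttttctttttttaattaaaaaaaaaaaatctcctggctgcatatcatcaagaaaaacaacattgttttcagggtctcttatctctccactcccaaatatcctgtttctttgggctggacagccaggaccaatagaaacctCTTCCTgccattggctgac
FLT1: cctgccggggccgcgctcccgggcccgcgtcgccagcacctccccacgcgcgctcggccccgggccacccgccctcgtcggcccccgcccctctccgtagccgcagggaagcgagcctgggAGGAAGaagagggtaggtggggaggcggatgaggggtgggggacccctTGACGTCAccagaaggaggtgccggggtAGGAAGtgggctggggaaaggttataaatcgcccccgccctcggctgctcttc
KDR: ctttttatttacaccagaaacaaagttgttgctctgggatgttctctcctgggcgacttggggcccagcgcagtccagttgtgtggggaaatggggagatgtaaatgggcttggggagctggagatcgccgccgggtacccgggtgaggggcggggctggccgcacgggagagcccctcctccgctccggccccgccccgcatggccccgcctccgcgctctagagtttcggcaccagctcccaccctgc

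In these windows FLT1 held AGGAAG at 129 and 53 bases before its start, with the cyclic AMP response element between them. ERG held the longer form once, as CTTCCT, and KDR held neither marked match. The shorter GGAA was not counted, and the KDR and FLT1 windows also hold it outside the capitals. The longer form also occurred in the APLN window and in an overlapping ERG window that shares the printed match, but not at the other ERG starts. Over the 10 entries, 4 held the longer form and 1 held the response element. Across all 35116 windows of the table these shares were 28.7% and 1.65%. A match of letters is not a binding site, and these counts give no measure of ERG binding.

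The coefficient of variation was larger in KO than in WT for 8 of the 9 genes, FLT1 being the exception. For APLNR, ERG, VWF and PECAM1, which had fewer counts in KO, counting alone gives a larger KO value (18.2%, 20.9%, 19.6% and 64.5%) than WT value (6.79%, 8.73%, 12.3% and 29.1%), and the 69.5% of PECAM1 in KO was close to counting error. KO replicate 1 was the highest KO library for 6 members (APELA, ERG, VWF, PECAM1, TEK and FLT1) and the lowest for 2 (APLN and KDR). Relative to the WT mean, KO replicates 1 and 2 stood at 1.02 and 0.78 (log2) for TEK and at -1.17 and -1.02 for APLN, while replicates 3, 4 and 5 stood at 0.13, 0.36 and 0.43 for TEK and -0.20, -0.11 and -0.47 for APLN. ERG, in the same order of replicates, stood at -1.69, -2.27, -2.66, -2.65 and -2.63. APLNR had its lowest KO value in replicate 3 (-3.45) and its highest in replicate 5 (-2.31). Replicate 3 is the KO library that stood apart on the second component. The part of that in the members' values was not tested.

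**Figure D3:**
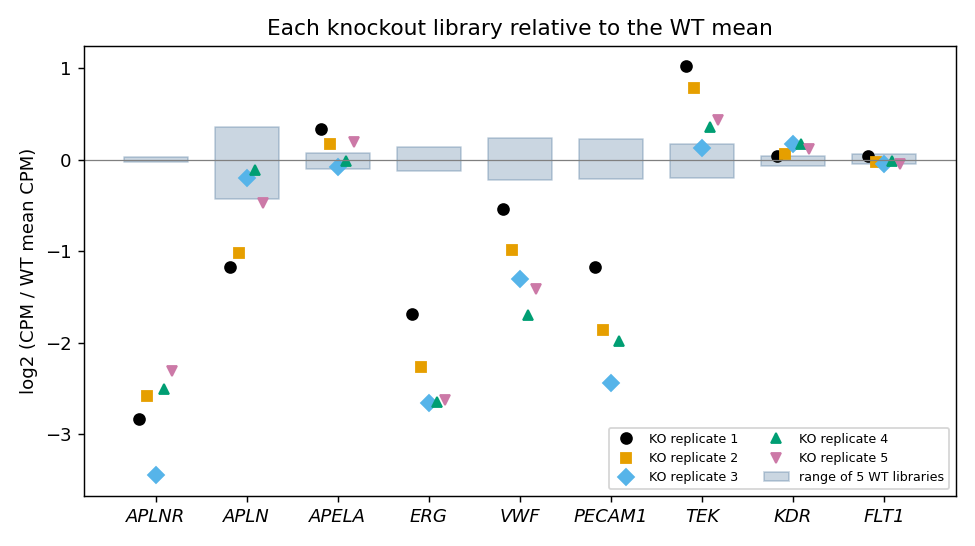
Each KO library relative to the WT mean (log2 of CPM over the WT mean CPM, vertical axis) for the 9 genes, with KO replicates as separate symbols and the range of the 5 WT libraries as blue boxes. TEK and APLN show replicates 1 and 2 apart from replicates 3 to 5, in opposite directions; PECAM1 has no point for replicate 5, which held 0 counts.

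Genes that process apelin peptides or carry the receptor's signal showed small falls. Of 16 listed, 13 were tested, 8 fell and 0 rose, where 24.1% of all tested genes were lower and 21.9% higher, with a median log2 fold change of -0.13 against 0 over all tested genes. The listed proprotein convertases, which cut peptide precursors, were all lower: PCSK6 fell from 4.99 ± 0.743 to 3.23 ± 0.58 CPM, PCSK5 from 10.3 ± 0.61 to 8.04 ± 0.635, PCSK7 from 46.2 ± 0.891 to 38.5 ± 0.543 and FURIN from 58.8 ± 1.23 to 55.5 ± 1.97 (edgeR adjusted p = 0.00254, 0.00115, 1.13e-05 and 0.0408). The groups overlapped for PCSK6 and FURIN but not for PCSK5 and PCSK7. MME, a peptidase that degrades apelin, fell by 0.15 on the log2 scale. Of the G protein subunits, GNAQ and GNA13 fell by 0.17 and 0.13, while the inhibitory GNAI1, GNAI2 and GNAI3 had log2 fold changes of -0.03, -0.03 and 0.01 and did not pass. The receptor adaptor ARRB1 fell from 24.3 ± 1.9 to 19.1 ± 1.78 CPM, and ARRB2 (-0.02) and the receptor kinase GRK2 (-0.06) did not pass. AGTR1, an angiotensin receptor related to APLNR, had 8 and 12 counts in KO and WT and was not tested. With the gene length offset 5 of the list were lower and 2 higher, GNAI1 and GNAI3, so these small shifts depend on that setting.

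Ligands and co-receptors of VEGF moved both ways. Of 8 listed, 7 were tested, 4 rose and 2 fell (median log2 fold change 0.23), where 46.0% of all tested genes were called in either direction. VEGFB and PGF, ligands of FLT1, rose from 13.2 ± 0.798 to 18.2 ± 1.96 CPM and from 3.68 ± 0.281 to 4.84 ± 0.191 CPM (edgeR adjusted p = 3.12e-04 and 0.00109). The co-receptor NRP1 rose from 0.818 ± 0.181 to 1.71 ± 0.303 CPM, and VEGFA, a ligand of both receptors, from 64.1 ± 2.78 to 75.1 ± 11.3 CPM with overlapping libraries (adjusted p = 0.0424). FLT4, the VEGF receptor of lymphatic endothelium, fell from 18.0 ± 1.0 to 13.3 ± 2.12 CPM and the co-receptor NRP2 from 56.3 ± 1.24 to 44.4 ± 6.13 CPM. The groups overlapped for NRP2 but not for FLT4. VEGFC had a log2 fold change of -0.06 and VEGFD was under the filter.

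In the angiopoietin system, whose receptor TEK rose, 3 of 5 tested genes fell and 0 rose (median -0.36), against 24.1% lower among all tested genes, and under most alternatives 2 fell. TIE1, the partner of TEK, fell from 5.21 ± 0.536 to 4.07 ± 0.429 CPM (edgeR adjusted p = 0.00984). The ligand ANGPT4 fell from 1.29 ± 0.252 to 0.816 ± 0.233 CPM and SVEP1, a matrix protein that binds TIE1, from 1.1 ± 0.12 to 0.849 ± 0.0997 CPM. The groups overlapped for TIE1, ANGPT4 and SVEP1 alike. The main ligand ANGPT1 stood at 1.01 ± 0.444 and 1.03 ± 0.119 CPM in KO and WT, PTPRB at a log2 fold change of -0.22, and ANGPT2 had 19 and 22 counts.

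**Figure D4:**
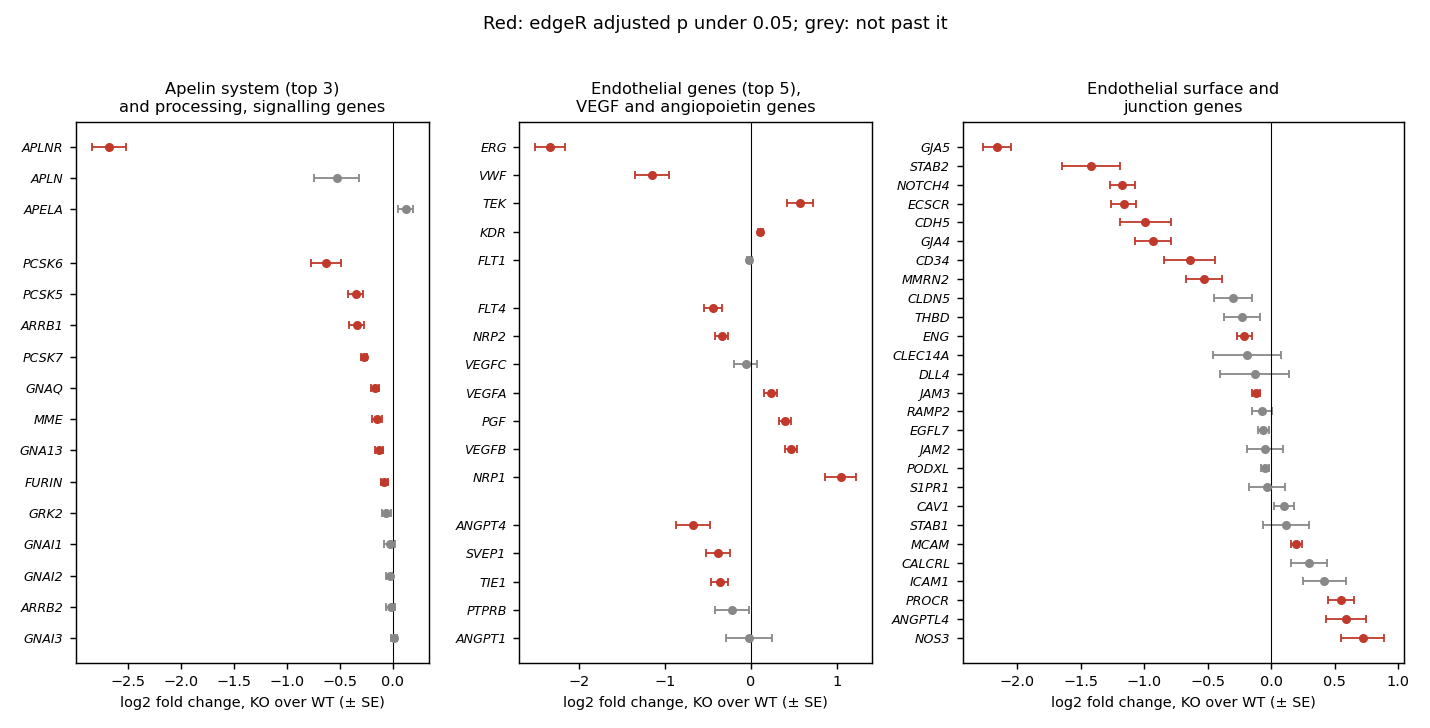
Log2 fold change, KO over WT, with its SE (horizontal axis) of tested members and of the listed pathway and endothelial surface genes, in red (grey otherwise) where the edgeR adjusted p is under 0.05. APLNR and ERG lie far left of their pathway genes, and GJA5 (-2.16) leads the endothelial surface genes.

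Other endothelial genes were called in both directions, and their counts stand beside 24.1% lower and 21.9% higher among all tested genes. Of 21 listed endothelial transcription factors 14 were tested, 2 fell (ELK3 and ELF1, both ETS factors) and 2 rose (SOX7 and KLF4), with a median of 0. ELK3 fell from 31.5 ± 0.529 to 21.7 ± 1.28 CPM (edgeR adjusted p = 1.67e-06). FLI1, the closest relative of ERG among those listed, stood at 0.942 ± 0.176 and 1.03 ± 0.162 CPM in KO and WT (log2 fold change -0.11, adjusted p = 0.608), and ETV2, an early inducer of the lineage, at 0.454 ± 0.219 and 0.359 ± 0.0619 CPM. Both FLI1 and ETV2 were named after their values were seen. Of 38 surface and junction genes 27 were tested, 10 fell and 4 rose (median -0.12 against 0 over all tested genes). The 4 with the smallest p were GJA5 and GJA4, connexins of arterial endothelium, NOTCH4, a Notch receptor of endothelium, and the endothelial surface gene ECSCR. GJA5 went from 8.14 ± 0.657 to 1.83 ± 0.308 CPM, NOTCH4 from 6.81 ± 0.713 to 3.03 ± 0.379, ECSCR from 4.29 ± 0.289 to 1.92 ± 0.232 and GJA4 from 3.01 ± 0.203 to 1.58 ± 0.338 (adjusted p from 8.14e-08 to 2.29e-04). Without KO 3, WT 2 and WT 3 the surface list had 7 lower and 5 higher, and the transcription factors 1 lower and 2 higher. Some of the 10 surface genes that fell, CDH5 among them, were under 1 CPM in every library. They met the filter on low counts by their WT libraries, so these falls are not independent of the filter.

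Markers of other cell types were measured beside these changes, and each count of lower or higher markers is to be read against 24.1% lower and 21.9% higher among all tested genes. The 11 endothelial markers in the table summed to 189 to 200 CPM in KO and 187 to 199 CPM in WT, most of it FLT1 and KDR. Of the 8 tested, 4 fell (ERG, VWF, CDH5 and TIE1) and 2 rose (TEK and KDR). CDH5, the cadherin that defines endothelial junctions, fell from 0.573 ± 0.101 to 0.286 ± 0.0489 CPM (edgeR adjusted p = 0.00186), a low level in both groups. Platelet and megakaryocyte markers, which share VWF, PECAM1 and ERG expression with endothelium, summed to 15.6 to 19.6 CPM in KO and 21.7 to 28.2 CPM in WT. Of their 4 tested genes 2 fell and 0 rose: PF4 from 0.849 ± 0.125 to 0.217 ± 0.0999 CPM and ITGA2B from 21.4 ± 2.49 to 16.4 ± 1.32 CPM. PF4 held 11, 9, 4, 6 and 7 counts in KO and met the filter on low counts through WT. Its fall is thus not independent of that filter. With at least 1 CPM in 5 libraries ITGA2B alone of the list was tested, and it fell. Blood markers summed to 0.968 to 1.78 CPM in KO and 0.912 to 1.57 CPM in WT, with 0 of 2 tested called and PTPRC, GATA1 and HBZ under 0.1 CPM in every library. Primitive streak markers summed to 12 to 18.5 CPM in KO and 9.79 to 12.8 in WT, with NODAL the 1 gene called of 3 tested (0.88), and lateral mesoderm markers to 4.43 to 5.61 and 3.94 to 4.53 CPM with 0 of 2 called. Mural and smooth muscle markers summed to 291 to 716 CPM in KO and 231 to 260 in WT, most of it TAGLN (383 ± 167 and 152 ± 10.1 CPM). Of 8 tested, CNN1, TAGLN and ACTA2 rose and CSPG4, MYH11 and RGS5 fell. Fibroblast markers summed to 809 to 935 CPM in KO and 930 to 1010 CPM in WT, with 3 of 4 tested lower. Most of that sum was THY1 (730 ± 58.9 and 729 ± 30.5 CPM), which did not pass. The part of any such cells in the members' changes was not tested.

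Among 12209 tested genes with a mean of at least 5 CPM, the profiles most like APLNR over the 10 libraries were LINC01844, ZNF300, ATP10B and GABRP. Likeness was the root mean square difference of centred log2 CPM, which was 0.335, 0.374, 0.503 and 0.513 for these genes. ZNF300, a zinc finger gene, went from 34 ± 1.64 to 8.14 ± 0.475 CPM, and the noncoding LINC01844 from 10.5 ± 0.619 to 2.26 ± 0.458 CPM. For APELA the nearest profiles were BCOR, DNMT3B, CHST10 and NIPSNAP3A, at 0.0405 to 0.045. DNMT3B, a DNA methyltransferase abundant in pluripotent cells, measured 847 ± 97.4 CPM in KO and 798 ± 34.6 CPM in WT. The 10 points of each profile share the groups, so likeness to APLNR includes the difference between them.

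In the authors' deposited table the log2 fold changes were closer to 0 than in edgeR for all members but APELA and KDR: -2.31 for APLNR, -1.89 for ERG, -0.85 for VWF, -0.71 for PECAM1, -0.38 for APLN, 0.51 for TEK, 0.13 for APELA and KDR, and -0.01 for FLT1. The authors' deposited table marks APLNR, ERG, VWF and PECAM1 as called, all lower in KO, where 2.40% of its 32152 genes are marked and lower and 3.79% are marked in either direction. TEK and KDR, with adjusted p of 3.39e-04 and 0.00419 in the authors' deposited table, are not marked; every marked gene has an absolute log2 fold change of at least 0.59. The direction was the same in both analyses for all 9 genes, and so was the order of the 8 tested members.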

How the data were processed

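Raw counts of each gene, without normalization, were deposited for the 10 libraries. The authors' deposited table of KO against WT gives a mean normalized signal, log2 fold changes and their standard errors, a score that is the quotient of both, and p-values. It was used for symbols and for 1 comparison of fold changes. Build hg38, DESeq2 and R 3.6.3 are named in the submitters' processing notes. The sources used here give no aligner, counter, annotation or strandedness. None of the 9 genes shares exonic bases with another gene in GENCODE 29 (GRCh38). The total per library was 28615751 to 47319933, so that the limit a 0 allows (3 counts) is 0.0634 to 0.105 CPM. Libraries of a group differed by more than sampling noise (chi-square per degree of freedom 3.59 to 26.2).

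The main test was the quasi-likelihood test of edgeR 4.0.16 (R 4.3.3) after TMM and filterByExpr, on 19163 genes, at an adjusted p of 0.05. On counts of 18887 genes simulated with the same group sizes it recovered 88% of 1.5-fold and 100% of 4-fold changes. The changed genes, 50 per fold, averaged at least 1 CPM, and no effects shared by the genes of a library were simulated. Those rates may thus not hold for these data. Alternatives used DESeq2 1.42.0, limma 3.58.1, other filters and scaling, a replicate block, a length offset (splines, 5 degrees of freedom) and left-out libraries. Members and lists were chosen with earlier results of these data known, so their changes are not independent evidence. Named genes are the members, KCNH2, the genes of 3 pathway lists (1 is not reported here), up to 4 of the smallest p in other lists, the 4 profiles nearest APLNR and APELA (log2 CPM with a prior count of 2), and neighbours. Outside this rule, FLI1 and ETV2 and the markers ACTA2, RGS5, PTPRC, GATA1, HBZ, SOX2, TDGF1 and ZFP42 were named after their values were seen. Some listed genes were not analysed here (AGTR2, EMCN, SELE, SELP, SOX17, HBG1, HAND1, GP9, DCN, LUM). Promoter windows are from RefSeq.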

Additional observations from a re-analysis of the deposited data

Results flagged for a closer look

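Over 144 groups of 5 libraries (members and named genes), 7 had 1 library far from the rest, where chance flags about 1 in 20, or 7.2. None was a member. The gap to the nearest library, as a share of the group's range, is given for each. GNAI1 was low in KO replicate 5 (0.741), at 23.9 CPM. ARRB1 was low in KO replicate 1 (0.728), at 16.1 CPM. ECSCR was high in KO replicate 1 (0.726), at 2.32 CPM. ITGA2B was high in WT replicate 1 (0.858), at 25.9 CPM. NANOG was low in WT replicate 4 (0.849), at 66.1 CPM. BCOR and DNMT3B were low in WT replicate 1 (0.77 and 0.776), at 48.4 and 738 CPM.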

How the results depend on the processing

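APLNR, ERG, VWF and TEK kept their direction and call in all 19 alternatives, with log2 fold changes from -2.79 to -2.53, -2.53 to -2.26, -1.32 to -1.03 and 0.45 to 0.71. APLN passed with limma voom (-0.55), at least 1 CPM in 5 libraries (-0.53), the gene length offset (-0.58), without KO 3 and WT 3 (-0.59) and without KO 3, WT 2 and WT 3 (-0.64). Leaving out each library in turn gave -0.66 to -0.40 for APLN, past the threshold in 3 of 10 fits, and 0.08 to 0.17 for APELA, past it in 1. APELA also passed without KO 3 and WT 3 (0.19). KDR lost its call without KO 3 and WT 3 (0.10) and without KO 3, WT 2 and WT 3 (0.07), where the members higher numbered 1. FLT1 turned to 0.12 with the length offset. Members lower ran from 3 to 5 over the fits without 1 library. The 5 came without WT replicate 4, where APLN passed and PECAM1 passed the filter. Without KO replicate 1, 2 or 5 the members lower numbered 4 although APLN did not pass. There too the added member was PECAM1, which then passed the filter. The causes of these shifts were not tested. With a replicate block APLNR was at -2.70 and APLN at -0.55, no member changed its call, and all genes called were 4258 higher and 4300 lower against 4201 and 4615. Same-numbered libraries had deviations correlated at 0.173, -0.157, 0.698, 0.198 and 0.176, and 1 of 5 KO libraries, replicate 3, matched its own number best. The main test therefore did not treat the numbers as pairs. Whether KO 3 and WT 3 shared a batch was not tested. Of the list counts and level ratios, 12 values moved and 490 did not. PECAM1, at 71 counts in all, is limited by depth, and no member was at 0 in a whole group, so the planned floor per library was not used.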

Other observations

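The nearest 2 tested genes on either side of each member numbered 36, of which 14 were lower and 7 higher in KO by edgeR's adjusted p, or 58.3% against 46.0% of all tested genes. LRRC55, the nearest tested gene below APLNR on chromosome 11 at a gap of 41.9 kb, fell from 7.60 ± 0.556 to 2.65 ± 0.606 CPM (log2 fold change -1.53, SE 0.14, adjusted p = 5.81e-06), while TNKS1BP1, 62.3 kb to its other side, fell by 0.11. TRIM61, 55.5 kb from APELA, fell from 5.36 ± 0.267 to 0.113 ± 0.0547 CPM next to a ligand that did not pass. IFT74, 46.2 kb from TEK, rose by 0.51 (SE 0.06), close to the 0.57 of TEK, and PLAA beyond it rose by 0.28. Both neighbours on the other side of TEK fell. LINC00032, the nearest at 15.5 kb, fell by 0.84 (SE 0.27, edgeR adjusted p = 0.023) at a low level, and MOB3B by 0.39. ANO2, 2.64 kb from VWF, fell from 2.73 ± 0.301 to 1.63 ± 0.376 CPM. ETS2, the ETS gene next to ERG, had a log2 fold change of -0.06 (adjusted p = 0.53).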
